A study of Mus musculus with 6 samples.

Results

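The genes described here are 10 genes of laminins and the basement membrane, chosen by name and found by their symbols in the deposited expression table: the laminin chains Lama1, Lama4, Lama5, Lamb1, Lamb2 and Lamc1, the nidogens Nid1 and Nid2, the perlecan gene Hspg2 and the dystroglycan gene Dag1. All 10 were found among the 23284 genes of the table. RNA-seq was performed on heart ventricles of C57BL/6 J chimeric embryos at E9.5, 3 of them WT and 3 KD. All embryos were made by tetraploid complementation, in which the embryo proper comes from the injected ES cells. The ES cells, derived from C57BL/6 J, were wild type for the WT embryos and Tbx5ua -/- for the KD embryos. Tbx5ua is a lncRNA that shares a promoter with Tbx5 and runs away from it. In the KD cells, polyadenylation signals added to each Tbx5ua allele cut its transcript short. The edited ES cells were clonal, and the sources used here do not say from which ES cell line each embryo came.

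Expression is in FPKM, the fragments assigned to a gene after correction for transcript length and sequencing depth, with 1 value for each group and none for single embryos. Each value below is therefore the authors' group value, without SD, and no ratio between the groups was set against the spread between embryos. The authors' own test columns were not used and no new test could be made from these values, and a ratio is given as KD over WT on the log2 scale with no pseudocount. As a measure of size, a gene was counted as past the fold when the groups differed by at least 1.5-fold. Read numbers and library depth are unknown, but the table marks 9 of the 10 genes as having enough alignments for a comparison; the exception is Lama1. Tbx5ua itself is not analysed here. Ventricular RNA was looked for with Myl2, the ventricular myosin light chain gene, which had 10924 FPKM in WT against 12702 in KD. Irx4, a ventricular transcription factor gene, had 31.8 FPKM in WT against 27.6 in KD. No atrial gene was read for this check, so it cannot show how much other tissue the samples hold.

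A basement membrane is a thin sheet of matrix that underlies epithelia and endothelia and surrounds muscle cells. Laminins are secreted as trimers of an alpha, a beta and a gamma chain and assemble into a network, which nidogens and perlecan connect to type IV collagen. Cells hold this network through integrins and through dystroglycan, which ties it to dystrophin and the cytoskeleton inside the cell. In the embryonic heart, basement membranes lie beneath the endocardium and around the myocardium, on either side of the cardiac jelly.

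Fold differences of the 10 genes between the groups were small. The median of the absolute log2 ratio was nonetheless 0.22 over the 9 members with a mean of at least 1 FPKM, against 0.15 over all such genes. Dag1 had the highest level and Lama1 the lowest in both groups, and the order of all 10 genes by level was identical in WT and KD. Only Lama5 was past 1.5-fold, with a ratio of 1.504-fold at a level near 1 FPKM, and the other 9 genes differed by at most 1.22-fold. Across the 11309 genes above 0 in both groups with a mean of the group values of at least 1 FPKM, 6.56% were past 1.5-fold, 3.89% higher and 2.67% lower in KD. A count of 1 among the 9 members that pass this filter is thus near the background. In bulk samples, fewer cells of a type and less RNA per cell cannot be told apart.

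**Figure D1:**
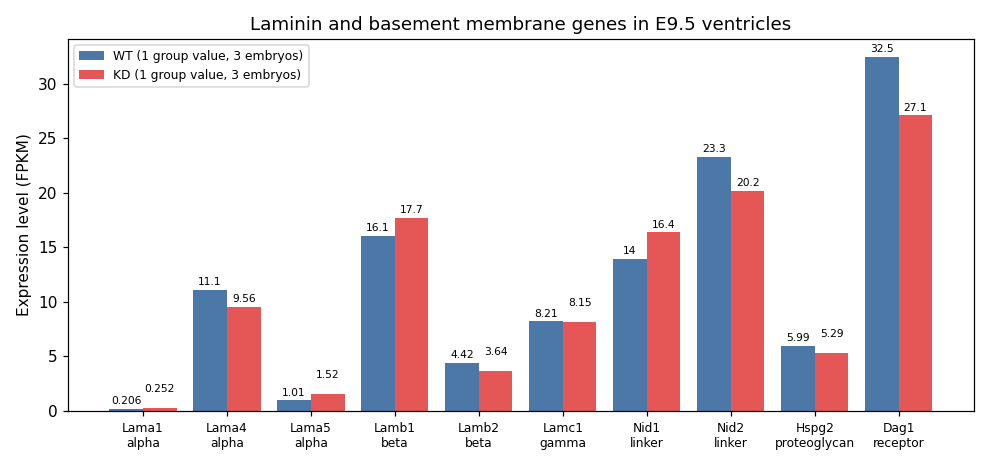
Group values in FPKM (y axis) of the 10 genes in WT (blue) and KD (red), each bar 1 value estimated by the authors from 3 embryos, so that no error bar can be drawn. Dag1 is highest, with 32.5 FPKM in WT against 27.1 in KD, and Lama1 is lowest.

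For the members at the ends of the order of ratios, the promoters in RefSeq (build GRCm38.p6, 250 bases before to 50 after the transcription start, read 5′ to 3′ on the gene's strand) are shown as examples. Lama5 had the highest ratio and Lamb2 the lowest. Capitals mark each match to the GC box GGGCGG on either strand, the sequence known to be bound by Sp1, and adjacent matches do not overlap here. The first window is chr2:180225810-180226109 on the minus strand and the second is chr9:108479612-108479911 on the plus strand.
Lama5: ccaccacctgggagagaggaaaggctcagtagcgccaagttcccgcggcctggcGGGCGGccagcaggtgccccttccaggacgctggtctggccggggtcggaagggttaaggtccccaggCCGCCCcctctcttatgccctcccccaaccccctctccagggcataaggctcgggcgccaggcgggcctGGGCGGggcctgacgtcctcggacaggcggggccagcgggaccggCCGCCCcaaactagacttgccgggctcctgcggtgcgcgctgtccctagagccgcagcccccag
Lamb2: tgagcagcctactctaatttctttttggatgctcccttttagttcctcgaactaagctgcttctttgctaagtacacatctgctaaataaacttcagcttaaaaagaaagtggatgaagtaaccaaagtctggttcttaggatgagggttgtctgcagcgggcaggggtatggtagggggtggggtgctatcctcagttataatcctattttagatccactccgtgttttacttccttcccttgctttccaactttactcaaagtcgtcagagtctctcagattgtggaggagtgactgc
The Lama5 window is 72.7% G or C with 4 GC box matches. The Lamb2 window is 44% G or C with 0 matches, against a median of 53% over all 32544 distinct promoter windows of this length, of which 35.9% hold a GC box. RefSeq promoters were matched for 6 of the 10 genes, with a pair of windows for Dag1. The windows of Hspg2, Dag1, Lamb1 and Nid1 held from 1 to 5 GC boxes. The pair of windows of Dag1, the gene with the next lowest ratio after Lamb2, are 69.7% and 75.3% G or C, and that of Hspg2, also lower in KD, is 70.3%. GGTGTGA, the core of the half-site recognized by T-box factors such as Tbx5, was searched on both strands and was found in 0 windows of the 6 genes, while 3.95% of all windows hold it. This says only that these letters are not in these windows.

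The alpha chains carry the globular domains by which laminins bind integrins and dystroglycan. Lama4, the alpha chain of vessel and muscle basement membranes, was the main one, with 11.1 FPKM in WT against 9.56 in KD. Its log2 ratio was -0.22, that is 1.16-fold lower in KD. It lies at chr10:38965515-39110188 on the plus strand, with 38 exons in the transcript with the longest coding sequence. Lama5, the alpha chain common in epithelial basement membranes, had 1.01 FPKM in WT against 1.52 in KD (log2 ratio 0.59), and 96.1% of the 11309 genes had a lower ratio. It lies at chr2:180176373-180225859 on the minus strand and has 79 exons. Its ratio of 1.504-fold is just past the 1.5-fold line, and scaling both groups to the same sum of FPKM put it below the line at a log2 ratio of 0.56, as did a pseudocount of 1 FPKM at 0.33.

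Low levels vary more. Among the 1345 genes with a mean from 1 to under 2 FPKM, the range that holds Lama5, 24% were past 1.5-fold and 14% were so in the direction of higher in KD. A long transcript collects more fragments at the same FPKM, and the coding sequence of Lama5 has 11154 bases. Among the 338 genes of this level range with a coding sequence at least as long as that of the shortest member, Dag1, 15.7% were past 1.5-fold and 8.58% were higher in KD by that fold. Epicardial markers were also higher in KD. All 6 of the list passed the level filter, and 5 of them were at least 1.5-fold higher, against 3.89% of all 11309 genes. None of these markers was at 0 in either group, and their summed level was 47.0 FPKM in WT against 95.9 in KD. Their part in the Lama5 ratio was not tested.

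Lama1, the alpha chain of early embryonic basement membranes, was low, with 0.206 FPKM in WT against 0.252 in KD. It lies at chr17:67697265-67822645 on the plus strand. Its log2 ratio of 0.29 rests on a level under the filter and is 0.053 with a pseudocount of 1 FPKM. Of the alpha chains that are not among the 10 genes, Lama2 had 0.0936 FPKM in WT against 0.219 in KD, and Lama3 had 0.0459 FPKM in WT against 0.0249 in KD. Summed over the 5 alpha chains, the level was 12.5 FPKM in WT against 11.6 in KD. Lama4 made up 89.1% of this sum in WT and 82.6% in KD, and Lama5 8.09% in WT and 13.1% in KD. The alpha chain mRNA was thus mostly Lama4 in both groups, with a larger part of Lama5 in KD.

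**Figure D2:**
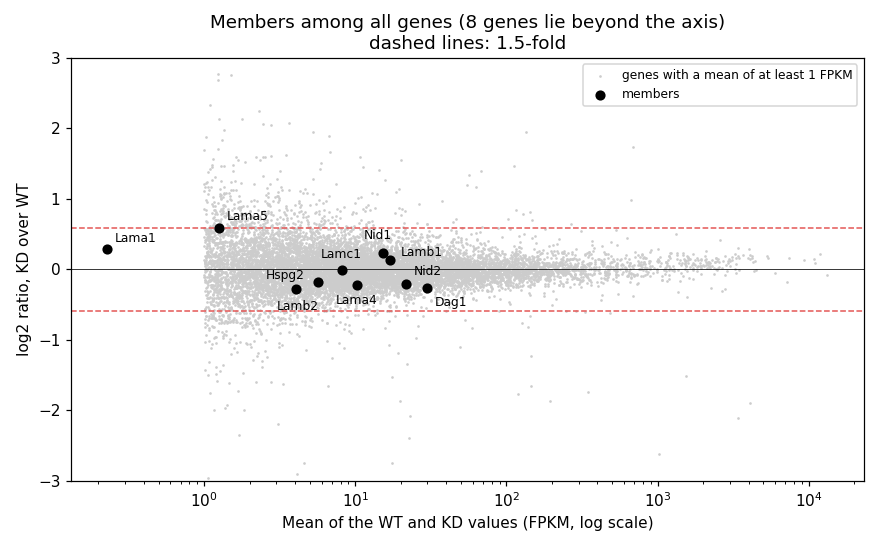
Log2 ratio of KD over WT (y axis) against the mean of the group values in FPKM (x axis, log scale) for the 11309 genes with a mean of at least 1 FPKM (grey) and the 10 members (black), with dashed lines at 1.5-fold. Lama5 sits on the upper line at the low end of the levels, where grey points spread widely, and 8 genes lie beyond the y axis.

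The beta chains had ratios of opposite sign. Lamb1, the beta chain of most embryonic laminins, had 16.1 FPKM in WT against 17.7 in KD, a log2 ratio of 0.14. It lies at chr12:31265294-31329639 on the plus strand, with 33 exons. Lamb2, the beta chain known from kidney filter and neuromuscular junction, had 4.42 FPKM in WT against 3.64 in KD. Its log2 ratio of -0.28, or 1.21-fold lower in KD, was the lowest of the 10 genes, and 11.7% of the 11309 genes had a lower one. It lies at chr9:108479862-108490530 on the plus strand. Lamb1 was 3.64 times Lamb2 in WT and 4.86 times Lamb2 in KD. Lamb3, a chain of epithelial anchoring laminin, had 0.290 FPKM in WT against 0.242 in KD. The 3 beta chains summed to 20.8 FPKM in WT against 21.6 in KD, of which Lamb1 made up 77.4% in WT and 82.0% in KD.

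Lamc1, the gamma chain shared by most laminins, was the member with the smallest log2 ratio in absolute value. It had 8.21 FPKM in WT against 8.15 in KD, a log2 ratio of -0.012, and lies at chr1:153218922-153332786 on the minus strand with 28 exons. Its sign turned to 0.023 when the median of genes of similar length was subtracted. Lamc3 had 0.0678 FPKM in WT against 0.151 in KD. Per length, the summed beta chain mRNA was 2.53 times that of Lamc1 in WT and 2.65 times in KD, and the summed alpha chain mRNA was 1.52 times that of Lamc1 in WT and 1.42 times in KD. These are ratios of mRNA levels and not of trimers, which hold 1 chain of each class.

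**Figure D3:**
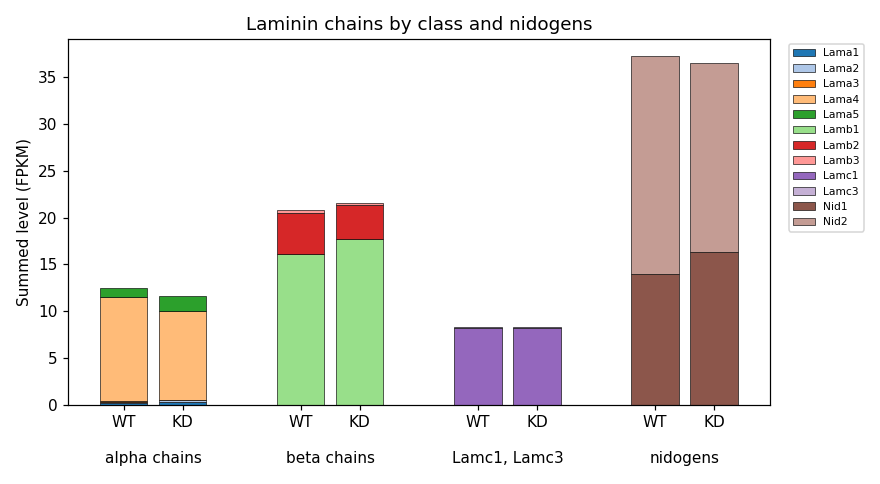
Summed FPKM (y axis) of the 5 alpha and 3 beta laminin chains, of the gamma chains Lamc1 and Lamc3 and of both nidogens in WT and KD, each bar divided by gene. Lama4, Lamb1 and Lamc1 fill most of their bars in both groups, and the nidogen sum is 37.3 FPKM in WT against 36.6 in KD.

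Nidogens bind the gamma chain of laminin and type IV collagen. Nid1 had 14.0 FPKM in WT against 16.4 in KD, a log2 ratio of 0.23, and Nid2 had 23.3 FPKM in WT against 20.2 in KD, a log2 ratio of -0.21. The values differed in opposite directions, so that their sum was 37.3 FPKM in WT against 36.6 in KD while the part of Nid1 was 37.5% in WT and 44.8% in KD. Nid1 lies at chr13:13437602-13512275 on the plus strand. Nid2 starts at the locus chr14:19751257-19823823 of the table, which also holds 2700060E02Rik, a gene with 205 FPKM in WT against 221 in KD. How reads were divided between these genes is not given, so the value of Nid2 is less certain.

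Hspg2 encodes perlecan, a large proteoglycan whose heparan sulfate chains bind growth factors. It had 5.99 FPKM in WT against 5.29 in KD, a log2 ratio of -0.18, and lies at chr4:137468803-137570630 on the plus strand. It has 97 exons and, with 13149 bases, the longest coding sequence of the 10 genes. Dag1 encodes both subunits of dystroglycan, the receptor for laminins and perlecan. It had 32.5 FPKM in WT against 27.1 in KD, a log2 ratio of -0.26 or 1.197-fold lower in KD, and 13.0% of the 11309 genes had a lower ratio. It lies at chr9:108205958-108263736 on the minus strand, 216 kb from Lamb2, with 11 other genes of the table between them. Lamb2 and Dag1 had the lowest ratios of the 10 genes.

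Of the 9 members with a mean of at least 1 FPKM, 3 were higher and 6 (66.7%) lower in KD, against 49.3% lower over all 11309 genes. Their median log2 ratio was -0.18, against 0.0042 over all 11309 genes. With Lama1 included, the median over the 10 genes was -0.095, so it depends on a gene listed at a low level. Leaving out Nid2, chosen after its shared locus was seen, also gave -0.095. Leaving out Lama5 gave -0.19 over 8 genes. The value of -0.095 is the midpoint of Hspg2 (-0.18) and Lamc1 (-0.012), so it cannot tell whether the shared locus of Nid2 matters. The members have long coding sequences, and the 1823 genes at least as long as the shortest member had a median log2 ratio of -0.045. After the median of the genes nearest in protein length was subtracted, the median of the 9 members was -0.12. The median of the absolute log2 ratio was 0.22 over the 9 members and 0.15 over all genes with a mean of at least 1 FPKM.

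Type IV collagen forms the second network of a basement membrane. In the list of 8 basement membrane collagens, 5 had a mean of at least 1 FPKM and 0 of these were past 1.5-fold. The highest in WT was Col18a1, the source of endostatin, with 64.1 FPKM in WT against 64.2 in KD. Col4a1 had 38.8 FPKM in WT against 38.9 in KD, and its partner chain Col4a2 had 21.7 FPKM in WT against 26.1 in KD (log2 ratio 0.27). Of the 14 other basement membrane glycoproteins 7 passed the level filter, 3 of them higher and 4 lower in KD. Their median log2 ratio was -0.27. The highest, Sparc, a collagen-binding protein, had 188 FPKM in WT against 225 in KD. Of these 7 genes only Fbln2, a fibulin of matrix and valves, was past 1.5-fold, with 4.96 FPKM in WT against 7.54 in KD (log2 ratio 0.60).

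Among the 14 laminin and collagen receptors 10 passed the level filter, 8 of them higher and 2 lower in KD, with a median log2 ratio of 0.23. Itgb1, the beta subunit of most laminin-binding integrins, was the highest, with 74.4 FPKM in WT against 71.0 in KD. Sdc4, a syndecan of focal adhesions, was past 1.5-fold with 9.32 FPKM in WT against 14.3 in KD (log2 ratio 0.62). In the dystrophin complex, which holds dystroglycan on the inside, 0 of 11 genes were past 1.5-fold and the median log2 ratio was 0.11. Its highest gene in WT was Sgce, a sarcoglycan, with 16.1 FPKM in WT against 17.4 in KD. Of the enzymes that build the laminin-binding sugar of dystroglycan, 0 of 13 were past 1.5-fold (median log2 ratio 0.075). Dpm3, a subunit of dolichol phosphate mannose synthase, came closest, with 70.7 FPKM in WT against 106 in KD and a log2 ratio of 0.58.

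Heparan sulfate enzymes, which make the chains of perlecan, numbered 13 after the level filter, with a median log2 ratio of 0.015. Ext2, a chain polymerase, was highest with 22.1 FPKM in WT against 24.3 in KD. Hs6st2, a sulfotransferase of these chains, was past 1.5-fold in the direction of lower in KD, with 15.9 FPKM in WT against 10.6 in KD (log2 ratio -0.59). Among collagen processing genes 0 of 10 were past 1.5-fold, and the highest, the collagen chaperone gene Serpinh1, had 255 FPKM in WT against 259 in KD. Among matrix proteases and their inhibitors 0 of 9 were past it, and the highest in WT, the gelatinase gene Mmp2, had 18.1 FPKM in WT against 17.9 in KD. In all, 3 of 78 partner genes with a mean of at least 1 FPKM were past 1.5-fold, or 3.85%, against the 6.56% of all genes. With a pseudocount of 1 FPKM the count of 3, Fbln2, Sdc4 and Hs6st2, became 0, while it stayed 3 with a mean of at least 5 FPKM.

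**Figure D4:**
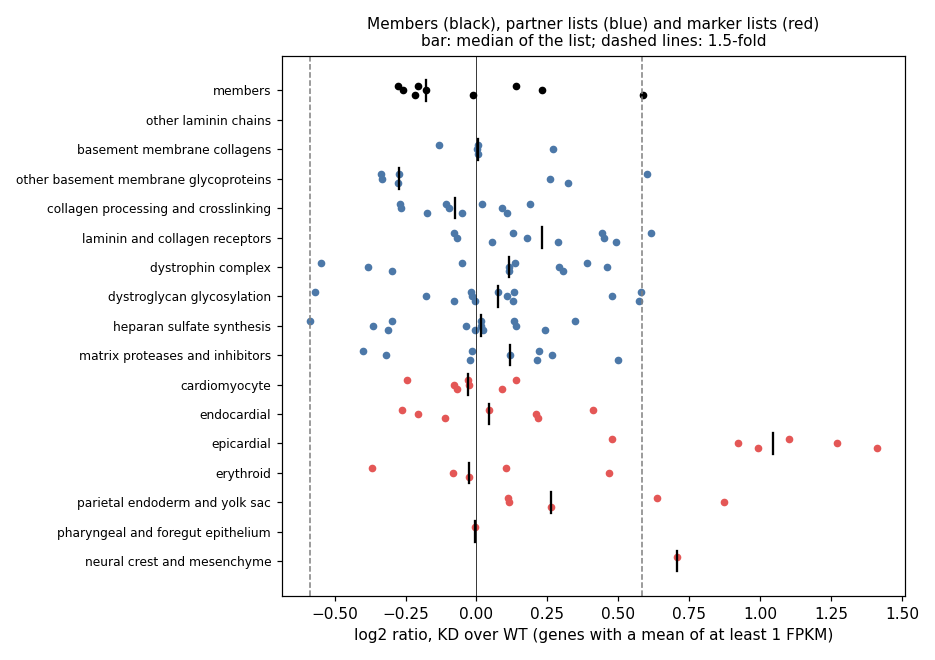
Log2 ratio of KD over WT (x axis) of each gene with a mean of at least 1 FPKM in the members (black), the partner lists (blue) and the marker lists (red), with the median of each list as a vertical bar and dashed lines at 1.5-fold. No gene listed under other laminin chains (Lama2, Lama3, Lamb3 and Lamc3) passed the level filter, the median of the 9 members is -0.18, and that of the 6 epicardial markers is 1.05.

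Markers of the cell types that a ventricle sample could hold were read from lists in the same way. Of all 11309 genes, 3.89% were at least 1.5-fold higher in KD and 2.67% lower. Of 7 cardiomyocyte markers 0 were past 1.5-fold, with a median log2 ratio of -0.028, and the highest, the myosin light chain gene Myl7, had 13643 FPKM in WT against 12907 in KD. Of 7 endocardial markers 0 were past it, with a median of 0.044. The highest, Emcn, had 43.1 FPKM in WT against 57.4 in KD. Of 5 erythroid markers 0 were past it, and the highest in WT, the embryonic globin gene Hba-x, had 4401 FPKM in WT against 4318 in KD. Of the 6 epicardial markers 5 were at least 1.5-fold higher in KD, with a median log2 ratio of 1.05. Wt1, the highest of them in WT and the one under this fold, had 13.8 FPKM in WT against 19.2 in KD. Rbp4 and Plat, from the list of parietal endoderm and yolk sac, tissues rich in laminin, were at least 1.5-fold higher in KD. They were 2 of the 5 genes that passed the level filter among the 10 markers listed, or 1 with a pseudocount of 1 FPKM. The mean of Rbp4 was 1.59 FPKM, in the range from 1 to under 2 FPKM where 14% of genes were higher in KD by this fold. Cubn, Afp, Ttr, Apoa1 and Apob did not pass it, each under 1 FPKM in both groups, and Apob was lower in KD. The summed level of the 10 was 27.0 FPKM in WT against 35.5 in KD and came mostly from those that passed. While 0 of the 10 were at 0 in both groups, several were thus close to it. The highest, Plat, had 9.15 FPKM in WT against 14.2 in KD. Of the foregut markers only Sox17, which endothelium also expresses, passed the filter, with 3.26 FPKM in WT against 3.24 in KD, and Shh was listed at 0 in both groups. Of the neural crest and mesenchyme markers only Twist1 passed it, with 1.98 FPKM in WT against 3.23 in KD, and Foxd3 was listed at 0 in both groups. With a pseudocount of 1 FPKM Twist1 was not past 1.5-fold. The part of these markers in the ratios of the 10 genes was not tested.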

How the data were processed

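Total RNA from 6 ventricle samples was made into Smart-Seq2 libraries and sequenced single-end. Per the labels, the submitters' processing notes name TopHat, Bowtie2 and Cuffdiff and build mm10, with versions not given in the sources used here. The authors deposited 1 Cuffdiff table with an FPKM value for each group, in which KD is named KO. Its columns of the authors' own comparison (log2 fold change, test statistic, p-value, q-value and significance) were not used, and 0 columns of single embryos were present, so SD, limma, fits without a replicate and any new test from the group values could not be had. The authors' test was set aside by choice. The design had set limma for such columns.

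Ratios of the group values were computed for genes above 0 in both groups with a mean of at least 1 FPKM. Another 57 genes with such a mean were listed at 0 in 1 group and left out. Table starts count from 0 and are printed with 1 added. Exons, strand and coding length came from GENCODE M21 (GRCm38), and 95.6% of the genes had a coding length. The members and lists were chosen with earlier results of these data known. Named genes were the members, the highest WT gene of each list and partner genes with a mean of at least 1 FPKM past 1.5-fold. The other laminin chains apart from Lamb3, Col4a1, Col4a2, Myl2, Irx4, Shh, Foxd3 and 2700060E02Rik were added after their values were seen. So were Rbp4, Cubn, Afp, Ttr, Apoa1 and Apob. In the glycosylation list some genes were given under an older and a newer symbol, and 13 of its 21 names matched. Alternatives were a lower fold and a fold of 2, pseudocounts of 1 and 0.1 FPKM, other level filters, scalings and a length correction. The scripts were tested on simulated data. Python 3.11.15, NumPy 2.4.6, pandas 2.3.3 and Matplotlib 3.10.9 were used.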

Additional observations from a re-analysis of the deposited data

How the results depend on the processing

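No paired analysis was possible because embryos have no columns of their own, and for the same reason the fits without each replicate were not run. With 1 value a group, any change of a log2 ratio at 2 decimals or of a share at the printed digits was counted. For counts, a change by over 1.5 times was counted. The number of members past 1.5-fold was 1 (Lama5) and became 0 with a 2-fold line, with pseudocounts of 1 or 0.1 FPKM, with a mean of at least 5 FPKM (which leaves Lama5 out), with the median of all genes subtracted and with both groups scaled to the same sum. It stayed 1 with the lower of the alternative folds, without a filter, without Nid2 and with the length correction. The log2 ratio of Lama5 ran from 0.33 with a pseudocount of 1 FPKM to 0.65 with the length correction. The median log2 ratio of the members, -0.18, was -0.15 with a pseudocount of 1 FPKM, -0.17 with 0.1 FPKM, -0.095 without a filter and without Nid2, -0.21 with equal sums and -0.12 with the length correction, so it was below 0 under every alternative run. Weighted by protein length, Lama4 made up 80.7% of the alpha chains in WT and 70.8% in KD, and Lamb1 made up 78.1% of the beta chains in WT and 82.6% in KD. The count of partner genes past 1.5-fold stayed 3 with a mean of at least 5 FPKM and with the median of all genes subtracted. It became 0 with a pseudocount of 1 FPKM. With this pseudocount or a mean of at least 5 FPKM, the markers past 1.5-fold went from 5 to 4 in the epicardial list, from 2 to 1 in that of parietal endoderm and yolk sac and from 1 to 0 in that of neural crest and mesenchyme. Since depth is unknown, the precision of the low levels of Lama1 and Lama5 cannot be given.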
